A study of Mus musculus with 18 samples.

Results

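RNA-seq of iHoxc10 neurons was compared with RNA-seq of control neurons, across all genes, to ask how the transcriptome of embryonic stem cell-derived spinal neurons differed after the lumbar gene Hoxc10 was switched on. The comparison uses the 3 libraries labeled day 4 iHoxc10 and the 3 labeled day 4 without Dox, 6 of the 18 libraries of the series. Of the 27179 genes in the files, 20944 had at least 1 count in any library of an induced line and were tested. iHoxc10 neurons came from the mouse line Ainv15(iFlag.Hoxc10), which was kept in 3 µg/ml doxycycline (Dox) for 48 h up to day 4. Control neurons came from another line, Ainv15(iFlag.Hoxc6), which was not given Dox and was also collected on day 4. Both lines were grown as embryoid bodies in retinoic acid (RA) and the Hedgehog agonist SAG, which pattern the cells toward ventral, cervical spinal cord. Each line carries a single N-terminally Flag-tagged Hox gene behind a Dox-responsive promoter, exchanged into the Hprt locus of the X chromosome. The harvested culture is a mixture of postmitotic motor neurons (MNs), interneurons and remaining progenitors, and no cells were sorted.

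The control libraries shared a sequencing run with iHoxc6 neurons, and the iHoxc10 libraries shared another with iHoxc9 neurons. Between iHoxc10 and control neurons, the Hox gene, the line, Dox and the run therefore all differ, and their parts in a difference cannot be told apart. For part of the genes described, the values are therefore also given in iHoxc9 neurons, which share Dox and the run with iHoxc10, and in iHoxc6 neurons, which share Dox with iHoxc10 and the line and run with the control. The study describes the 3 libraries of a group as independent differentiations.

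Hox genes encode homeodomain transcription factors that are expressed in overlapping domains along the body axis, the low paralog numbers rostrally and the high ones caudally, and motor neurons read this code to form columns that match the targets at each level. At limb levels, Hox6 and Hox10 paralogs act with the cofactor Foxp1 to form the lateral motor column (LMC), whose axons enter the limb. LMC neurons make the enzyme Aldh1a2 (Raldh2), which synthesizes retinoic acid, and the lateral division of the column, which projects to dorsal limb muscle, is marked by Lhx1, while the medial division keeps Isl1.

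Total counts ranged from 26114986 to 30757593 in the 6 libraries, and 3 counts corresponded to 0.0975 to 0.115 CPM, where CPM are counts after scaling libraries to equal size. This limit is set by counting error alone. Between 17524 and 18237 genes were detected per library. The control libraries differed from each other more than the iHoxc10 libraries did, with a chi-square per degree of freedom of 47.0 to 155 between control libraries and of 13.3 to 33.8 between iHoxc10 libraries. The spread among control libraries included proliferation genes: Mki67, a marker of cycling cells, was at 73.7, 156 and 47.4 CPM in control libraries 1, 2 and 3 and at 77.3, 59 and 70.1 CPM in iHoxc10 libraries 1, 2 and 3. Below, the values of a gene are CPM scaled by edgeR's TMM method and follow this order of libraries. Log2 fold changes are given ± SE from edgeR's quasi-likelihood test, with p-values adjusted over the 20944 genes by the Benjamini-Hochberg method. A gene passed at an adjusted p under 0.01, and it was called when its log2 fold change was also beyond 2 in either direction.

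By these thresholds, 311 genes were called between iHoxc10 and control neurons, 1.48% of the genes tested. Of these, 162 (0.773%) were higher and 149 (0.711%) lower in iHoxc10 neurons. In all 311, the 3 libraries of a group lay above the 3 of the other, as they did for 17.3% of all genes tested upward and 17.5% downward. At the adjusted p alone, 3022 genes (14.4%) passed, 1398 (6.67%) higher and 1624 (7.75%) lower, and the median log2 fold change of all genes tested was 0. The called genes were mostly of low abundance. A mean of at least 10 CPM in either group was reached by 50 of the genes called higher and 32 of those called lower, and 29 of the former had 3 counts or fewer in every control library. Among the 311, 257 were annotated as protein coding and 18 as lncRNA. Leaving out the first iHoxc10 library reduced the calls to 228, 139 higher and 89 lower, and leaving out the second control library gave 356, of which 147 were higher and 209 lower. At the adjusted p alone, 1633 genes passed without the first iHoxc10 library, 1835 without the second and 1654 without the third control library.

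**Figure D1:**
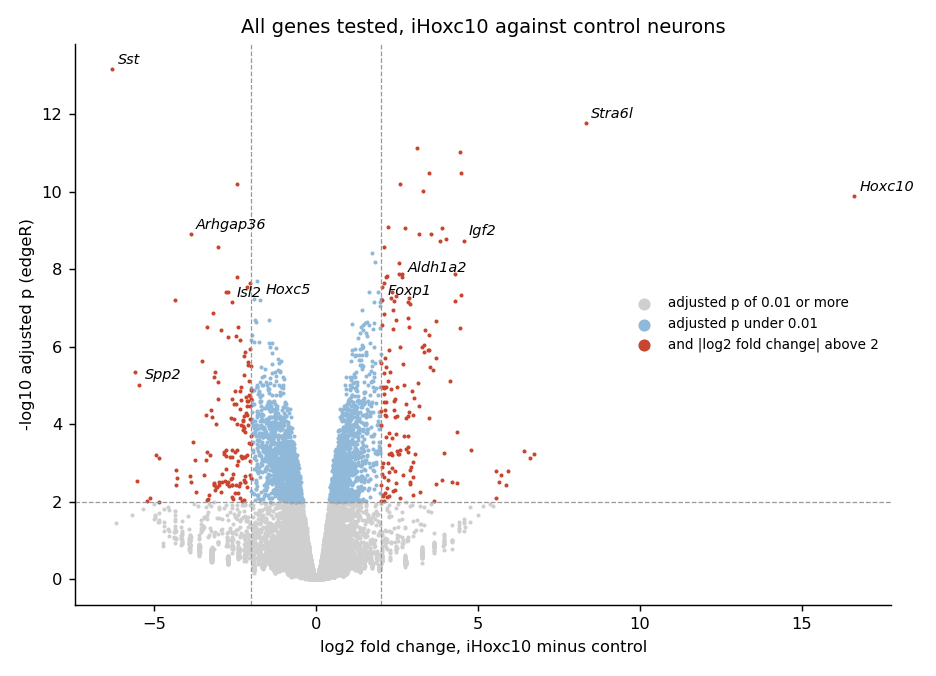
Log2 fold change of iHoxc10 against control neurons on the x axis and -log10 of the adjusted p on the y axis, with a point for each of the 20944 genes tested. The dashed lines are an adjusted p of 0.01 and log2 fold changes of 2 in either direction, blue points passed at the adjusted p alone, and red points are the 162 genes called higher and the 149 called lower. Hoxc10 stands apart on the x axis at a place set by the prior count, because its control level is 0.

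The targeted gene matched the labels. Hoxc10 (chr15:102966796-102971898, plus strand, GRCm38) had no counts in any control library and stood at 432, 425 and 433 CPM in the iHoxc10 libraries. Against the level of 3 counts in the control, this is at least 3980.0-fold higher (adjusted p = 1.29e-10). The counts cannot separate reads of the transgene from reads of the endogenous gene, and an exon of Hoxc10 overlaps an exon annotated to Hoxc5, so reads in that stretch are uncertain. In the iHoxc9 libraries, Hoxc10 lay at 0, 0.353 and 0.0398 CPM.

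Paralog groups 6 to 13 hold 24 Hox genes, of which 17 were tested, and 4 rose while none fell. All 4 were also called: Hoxc10, Hoxc6, Hoxd8 and Hoxa6. Another 7 of the 17 had 3 counts or fewer in every library of both groups. The median log2 fold change of the 17 was 0.80, and 1.79 when genes at this limit in both groups are left out and genes at 0 in a group, such as Hoxc10, enter at the bound set by 3 counts. Hoxc6, a determinant of the brachial LMC, was at 5.17, 2.58 and 1.8 CPM in control and 49.4, 49.4 and 43.1 CPM in iHoxc10 libraries, with no overlap. It rose by 3.88 ± 0.26 (log2, adjusted p = 8.43e-10). The control line carries the uninduced Hoxc6 transgene, so part of its low Hoxc6 counts may come from there, which the counts cannot show. Against iHoxc9 neurons, whose line has no Hoxc6 transgene and which had 1.96, 2.33 and 2.15 CPM, Hoxc6 was higher by 4.46 ± 0.27 (adjusted p = 1.44e-10). With the transgene induced, iHoxc6 neurons held 532, 499.9 and 512 CPM, so the Hoxc6 level of iHoxc10 neurons lay between that of the control and that of a line made to express it.

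Hoxd8 stood at 0.289, 0.347 and 0.449 CPM in control and 4.03, 3.69 and 2.88 CPM in iHoxc10 neurons and rose by 3.28 ± 0.36 (adjusted p = 1.02e-06). Hoxa6 rose from 1.96, 0.693 and 0.786 CPM to 8.93, 11.6 and 6.56 CPM, a log2 fold change of 2.95 ± 0.39 (adjusted p = 1.35e-05). Both also differed from iHoxc9 neurons within the run, by 1.49 ± 0.31 and 2.58 ± 0.38 respectively (adjusted p = 0.00227 and 6.42e-05), and from iHoxc6 neurons by 3.48 ± 0.36 and 2.37 ± 0.38 (adjusted p = 9.15e-07 and 1.54e-04). The called genes thus came from the HoxA, HoxC and HoxD clusters, and none from HoxB. Hoxb8 was at 183, 188 and 161 CPM and 174, 227 and 218 CPM (0.22 ± 0.15, adjusted p = 0.351), which did not pass. Hoxc8 and Hoxc9, which lie between Hoxc6 and Hoxc10 in the HoxC cluster, were near the limit of detection, at 0.0321, 0 and 0.0748 CPM and 0.0321, 0.0385 and 0.0374 CPM in control and 0.35, 0.287 and 0.162 CPM and 0.07, 0.0358 and 0.081 CPM in iHoxc10 neurons, and neither passed (adjusted p = 0.0103 and 0.637). Hoxc8, whose iHoxc10 libraries all lay above the control libraries (22 counts against 3, 7.57-fold higher with a counting interval of 2.27 to 39.5), passed in 5 of 13 alternative analyses. None of the 4 remaining tested HoxB genes of groups 6 to 13 passed.

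**Figure D2:**
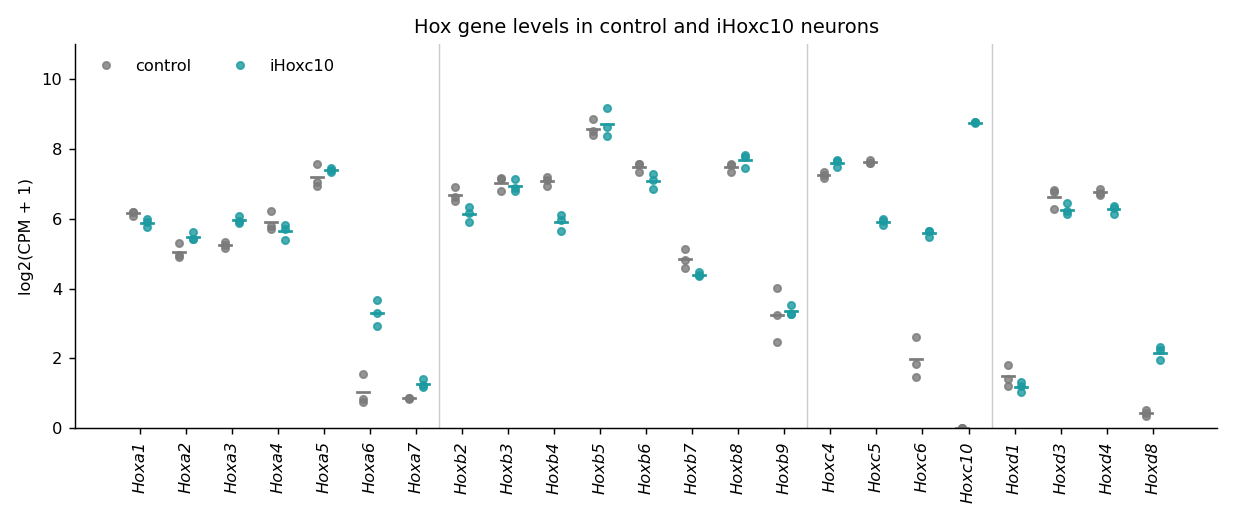
Level of each Hox gene with at least 1 CPM, as log2(CPM + 1) on the y axis, in each library of control (grey) and iHoxc10 (teal) neurons, with a bar at the group mean. Hoxc10 and Hoxc6 show the widest gaps between the groups, Hoxc5 and Hoxb4 are lower in iHoxc10, and most HoxB genes overlap or lie close together.

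Among the 15 Hox genes of groups 1 to 5, which mark hindbrain and cervical levels, 1 rose, 2 fell and 12 did not pass, with a median log2 fold change of -0.27. Hoxc5, a marker of cervical identity, fell from 204, 192 and 191 CPM to 55.1, 60.7 and 62.6 CPM, by -1.72 ± 0.15 on the log2 scale (adjusted p = 6.12e-08). Hoxb4 fell from 120.3, 137 and 147 CPM to 49.3, 61.8 and 67.8 CPM (-1.18 ± 0.14, adjusted p = 4.05e-06). In neither did the groups overlap. Hoxa3 was higher, at 39.2, 37 and 35.1 CPM in control and 60.5, 66.8 and 57.4 CPM in iHoxc10 neurons (0.73 ± 0.14, adjusted p = 7.64e-04), although antisense genes overlap its exons and the strand setting of the counting is not given in the sources used here. Hoxc4 (151, 159 and 141 CPM and 199, 204 and 176 CPM) and Hoxa5 (188, 121 and 132 CPM and 166, 175 and 159.7 CPM) did not pass (adjusted p = 0.046 and 0.398). For Hoxc4, every iHoxc10 library lay above every control library, and it passed with DESeq2 (adjusted p = 0.00724). Hoxb2 (-0.55 ± 0.15) lay just outside the threshold and passed in 5 of the 13 alternative analyses. With DESeq2, 3 of the 15 rose and 4 fell, with the day 4 libraries alone 4 fell, and without the second control library 2 rose. The reductions in iHoxc10 neurons were smaller than in iHoxc9 neurons, where Hoxc5 was at 2, 2.38 and 1.51 CPM and Hoxb4 at 12.2, 14.7 and 13.5 CPM. Within the run, iHoxc10 exceeded iHoxc9 by 4.90 ± 0.19 for Hoxc5 (adjusted p = 5.03e-14) and by 2.15 ± 0.15 for Hoxb4 (adjusted p = 1.27e-09).

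Pbx and Meis proteins are TALE homeodomain cofactors with which Hox proteins bind DNA. Of the 9 tested, 3 rose, none fell, none reached the fold threshold, and the median log2 fold change was 0.33. Pbx3 rose from 168, 140.2 and 119.5 CPM to 347, 286 and 265 CPM (1.07 ± 0.14, adjusted p = 1.07e-05). Meis2 rose from 186, 214 and 164 CPM to 371, 294 and 323 CPM (0.81 ± 0.14, adjusted p = 3.17e-04). For both genes, every iHoxc10 library lay above every control library.

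Genes of the LMC and of limb motor pools were measured for 15 members, of which 7 rose, 1 fell and 7 did not pass, and 4 were called, all higher. Their median log2 fold change was 0.64. Because whole cultures were measured, more cells of a type and more RNA per cell cannot be told apart here or in the results that follow. Aldh1a2 (chr9:71215789-71296243, plus strand) was at 35, 27.5 and 24.7 CPM in control and at 203, 185 and 163 CPM in iHoxc10 libraries. It rose by 2.66 ± 0.22 (adjusted p = 1.60e-08). Every iHoxc10 library lay above every control library. In iHoxc6 neurons Aldh1a2 stood at 96.7, 104 and 65.2 CPM, below iHoxc10 by 1.05 ± 0.20 (adjusted p = 9.39e-04), and in iHoxc9 neurons at 19.4, 27 and 18.5 CPM, below iHoxc10 by 3.08 ± 0.22 (adjusted p = 1.98e-09).

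Lhx1 (chr11:84517975-84525534, minus strand), the LIM homeodomain factor of lateral LMC neurons and also of several interneuron classes, stood at 15.2, 12.2 and 15.1 CPM in control and 77.1, 66.2 and 55.3 CPM in iHoxc10 neurons. It rose by 2.23 ± 0.15 (adjusted p = 8.08e-10), and the groups did not overlap. In the other lines on Dox, Lhx1 was at 3.75, 4.06 and 3.78 CPM in iHoxc9 and 10.5, 9.12 and 10.1 CPM in iHoxc6 neurons, which iHoxc10 exceeded by 4.09 ± 0.16 and 2.74 ± 0.15 (adjusted p = 7.83e-14 and 4.13e-11). Foxp1 (chr6:98925342-99522746, minus strand), the Hox cofactor that LMC formation needs, was at 74.7, 51.1 and 46.3 CPM in control and 274, 245 and 191 CPM in iHoxc10 libraries. It rose by 2.04 ± 0.18 (adjusted p = 6.21e-08), close to the fold threshold, and ranged from 1.93 to 2.28 over the 13 alternative analyses, 3 of which ended the call. Gfra1 (chr19:58235581-58455946, minus strand), the GDNF co-receptor of subsets of limb motor neurons, went from 33, 43.4 and 32.3 CPM to 172, 132 and 158 CPM (2.09 ± 0.15, adjusted p = 2.64e-09). All 4 genes were also higher in iHoxc10 than in iHoxc9 and in iHoxc6 neurons, with differences of 1.22 ± 0.18 and 1.01 ± 0.18 for Foxp1 and of 1.33 ± 0.15 and 1.79 ± 0.15 for Gfra1.

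Other LMC and pool genes rose by less. The Ephb1 receptor, which steers medial LMC axons, went from 29, 36.1 and 29.8 CPM to 104, 91.7 and 98.5 CPM (1.63 ± 0.16, adjusted p = 2.67e-07). Ret, the signaling receptor for GDNF, went from 184, 169.9 and 162 CPM to 299, 266 and 268 CPM (0.69 ± 0.12, adjusted p = 2.88e-04). Etv1, an ETS factor of motor pools, went from 4.05, 5.43 and 2.54 CPM to 7.28, 8.53 and 8.35 CPM (1.01 ± 0.24, adjusted p = 0.00305) and lost the threshold in 3 of 13 alternative analyses. For these 3 genes the libraries of the groups did not overlap. The member that fell was Nkx6-2, a homeodomain repressor of ventral progenitors, from 14.3, 8.01 and 11 CPM to 2.17, 3.58 and 2.96 CPM (-1.94 ± 0.28, adjusted p = 3.04e-05), and its exons overlap Inpp5a. Isl1, kept by medial LMC neurons, was at 115, 76.4 and 94.8 CPM and 136, 124 and 120.1 CPM (0.41 ± 0.25, adjusted p = 0.274). Epha4 (0.28 ± 0.21), which guides lateral LMC axons, Etv4 (-0.55 ± 0.19), Runx1 (0.64 ± 0.29) and Pou3f1 (0.02 ± 0.18), which mark pools, did not pass either.

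**Figure D3:**
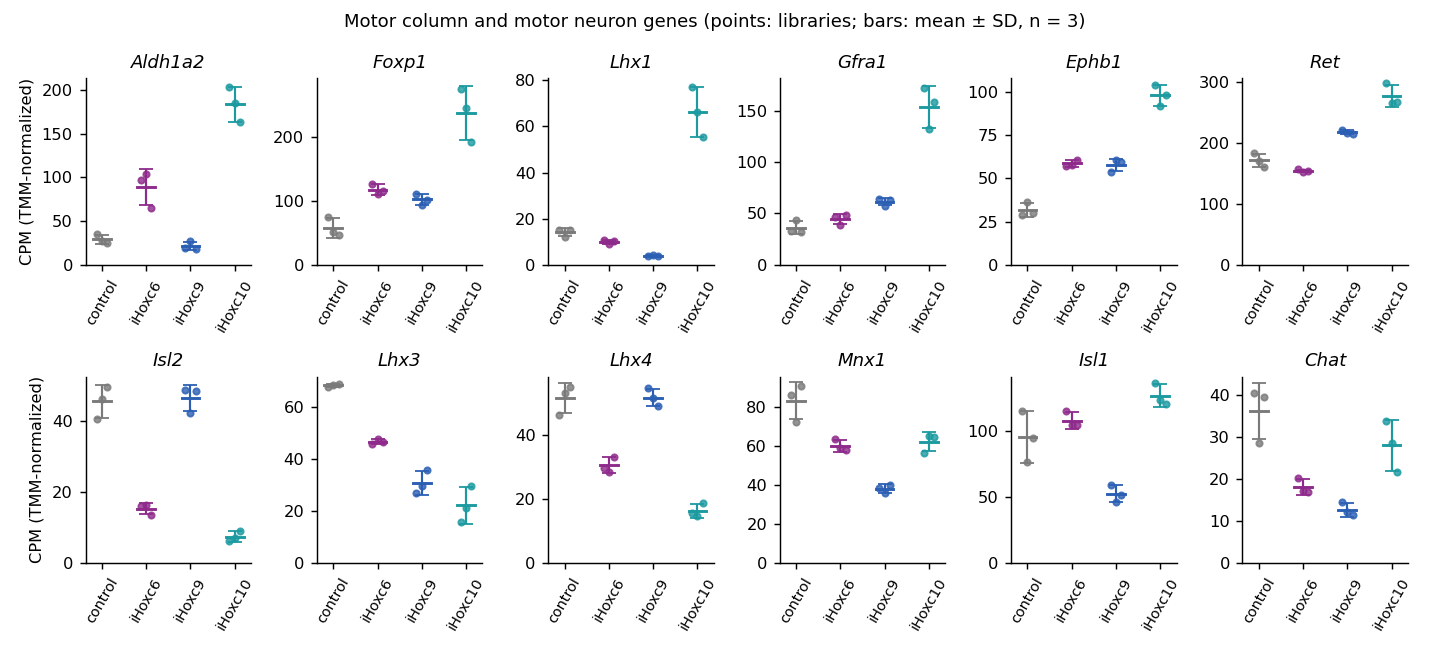
Level in CPM (y axis) of 12 genes of motor neuron identity and retinoid metabolism in control, iHoxc6, iHoxc9 and iHoxc10 neurons, with a point for each library and the mean ± SD of 3 libraries. Aldh1a2, Lhx1, Foxp1 and Gfra1 are highest in iHoxc10 neurons, and Isl2 is lowest there.

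Of 8 genes of the medial, hypaxial and preganglionic columns, 1 rose, 3 fell and 4 did not pass, with a median log2 fold change of -0.82. Lhx3, the LIM factor that is kept by medial motor column neurons and expressed in all newborn MNs, fell from 67.8, 68.4 and 68.9 CPM to 15.8, 21.1 and 29.6 CPM (-1.63 ± 0.21, adjusted p = 9.53e-06). Its paralog Lhx4 fell from 46.5, 53.3 and 55.1 CPM to 15.6, 14.8 and 18.7 CPM (-1.66 ± 0.21, adjusted p = 5.93e-06). No library overlapped between groups for either gene. Prdm16 fell by -1.90 ± 0.20 (adjusted p = 7.51e-07), and the gene that rose, Nos1, the nitric oxide synthase of preganglionic neurons, went from 0.771, 0.385 and 0.449 CPM to 1.44, 1.72 and 1.7 CPM (1.57 ± 0.30, adjusted p = 6.13e-04). Against iHoxc9 neurons, Lhx4 was lower by -1.67 ± 0.21 (adjusted p = 6.40e-06), while Lhx3 and Prdm16 did not pass (-0.47 ± 0.21 and -0.54 ± 0.20, adjusted p = 0.203 and 0.121). Against iHoxc6 neurons, Lhx3 and Lhx4 were lower by -1.07 ± 0.21 and -0.91 ± 0.20 (adjusted p = 9.14e-04 and 0.00304).

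The general motor neuron program did not move as a block. Of 14 core MN genes, 2 rose (1 without the third control or the second iHoxc10 library), 5 fell and 7 did not pass, with a median log2 fold change of -0.39, and Isl2 was the member called. Isl2 (chr9:55538677-55547667, plus strand), the LIM factor of postmitotic MNs, fell from 40.5, 46.2 and 49.6 CPM to 6.09, 7.13 and 9.12 CPM (-2.61 ± 0.24, adjusted p = 6.99e-08). It was also lower than in iHoxc9 neurons (48.7, 42.1 and 48.4 CPM) by -2.64 ± 0.24 (adjusted p = 7.04e-08) and than in iHoxc6 neurons (16, 16.3 and 13.5 CPM) by -1.04 ± 0.23 (adjusted p = 0.00272). Peripherin (Prph), an intermediate filament of peripherally projecting neurons, fell from 163, 112 and 156 CPM to 31.6, 40.7 and 36.9 CPM (-1.98 ± 0.20, adjusted p = 4.97e-07). Olig2, the factor of MN progenitors, was at 45.5, 116 and 58.1 CPM and 30.2, 23.3 and 38.3 CPM (-1.26 ± 0.27, adjusted p = 0.00148), and without the second control library, in which it was highest, the log2 fold change was -0.76 and the adjusted p 0.0134. The other 2 that fell are Lhx3 and Lhx4, described above.

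Onecut1 rose from 12.6, 14.1 and 10.5 CPM to 36.1, 29 and 26.9 CPM (1.3 ± 0.25, adjusted p = 6.13e-04), and acetylcholinesterase (Ache) from 22.4, 13.1 and 13.9 CPM to 34, 40.8 and 24.3 CPM (1.00 ± 0.22, adjusted p = 0.00171), which was lost in 2 of 13 alternative analyses. Mnx1, the homeobox gene that defines postmitotic MNs, stood at 86.2, 72.7 and 91.1 CPM in control and 56.8, 65.4 and 64.9 CPM in iHoxc10 neurons (-0.42 ± 0.16, adjusted p = 0.0685). Chat, which makes acetylcholine, stood at 40.4, 28.6 and 39.6 CPM and 33.7, 28.7 and 21.6 CPM (-0.37 ± 0.22, adjusted p = 0.255). The vesicular acetylcholine transporter Slc18a3 stood at 196, 277 and 199 CPM and 234, 266 and 300.0 CPM (0.25 ± 0.19, adjusted p = 0.373). These defining markers of MNs were present in every library of both groups and did not pass the test. For Mnx1, however, every iHoxc10 library lay below every control library, and it passed with the day 4 libraries alone (adjusted p = 0.00619). Among 8 genes of hindbrain and visceral MNs, 1 rose and 2 fell: the T-box genes Tbx2, from 6.62, 6.32 and 8.57 CPM to 0.98, 2.29 and 1.3 CPM (-2.23 ± 0.27, adjusted p = 5.39e-06), and Tbx20, from 4.34, 4.2 and 3.97 CPM to 0.98, 1.33 and 0.729 CPM (-2.03 ± 0.29, adjusted p = 3.39e-05). Both lay near the fold threshold, which they missed without a single iHoxc10 library, at -1.99 for Tbx2 and -1.82 for Tbx20.

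Retinoic acid patterns the culture from outside and is also made by LMC neurons, so the genes that take up, make, break down and sense retinoids were followed as a list of 20. Of these, 3 rose, 3 fell and 14 did not pass, with a median log2 fold change of 0.14. The 3 that rose, Stra6l, Aldh1a2 and Cyp26a1, act at uptake, synthesis and degradation. The sequence upstream of their RefSeq start sites (GRCm38.p6) is shown on the coding strand for chr4:45848566-45848663, chr9:71215539-71215788 and chr19:37697558-37697797, all on the plus strand and ending before the nearest annotated exon. Capitals mark a match to TTTACG in Stra6l and to a DR5 retinoic acid response element in Cyp26a1. The study found motifs with TTTAC at HOXC13 sites, and motifs with TTTAT at sites of HOXC9 and HOXC10.

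Stra6l: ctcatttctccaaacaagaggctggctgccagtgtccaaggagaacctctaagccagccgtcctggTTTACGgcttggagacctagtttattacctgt

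Aldh1a2: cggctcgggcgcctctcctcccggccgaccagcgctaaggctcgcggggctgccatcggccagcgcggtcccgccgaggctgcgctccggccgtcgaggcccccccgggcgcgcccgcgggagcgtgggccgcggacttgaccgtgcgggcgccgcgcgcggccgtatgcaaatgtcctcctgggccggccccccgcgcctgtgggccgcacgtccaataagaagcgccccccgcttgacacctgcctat

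Cyp26a1: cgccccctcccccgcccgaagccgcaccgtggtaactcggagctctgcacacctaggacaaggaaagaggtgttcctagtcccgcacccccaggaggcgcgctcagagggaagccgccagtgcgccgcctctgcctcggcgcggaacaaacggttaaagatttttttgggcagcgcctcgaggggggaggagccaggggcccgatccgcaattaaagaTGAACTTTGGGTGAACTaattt

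The search covered the 250 bases before the start site on both strands. It looked for TTTATG, with the TTTAT of HOXC9 and HOXC10 sites, and for TTTACG, with the TTTAC of HOXC13 sites. It also looked for the Pbx and Hox composite TGATTTAT. Direct repeats of the retinoid receptor half-site were searched at a spacing of 5 (DR5) or 2 (DR2). The TTTACG of Stra6l begins at -184. It is held by 2.73% of the 27025 promoters, by 3.04% of the 14824 of genes tested, and by 1 (0.909%) of the 110 of genes called higher. The DR5 of Cyp26a1 begins at -32 on the minus strand and is held by 0.0888% of all promoters, and by 2 of the 110 promoters of genes called higher and 2 of the 90 of genes called lower. In the Aldh1a2 window none of the motifs was found. TTTATG, which contains TTTAT, was in 11.1% of all promoters, in 7.12% of the 14824 of genes tested, in 10.9% of those of genes called higher and in 5.56% of the 90 of genes called lower. A match describes letters in these windows and does not show binding.

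Stra6l (chr4:45824293-45887010), a homolog of the retinol-binding protein receptor Stra6, was at 0.0321, 0 and 0.187 CPM in control and 24.4, 25 and 24.1 CPM in iHoxc10 libraries. After Hoxc10 itself it was the gene with the largest rise among those named by the rule (8.34 ± 0.38, adjusted p = 1.68e-12). The level in iHoxc10 was nonetheless below that of iHoxc9 neurons (62.7, 60.8 and 56 CPM) by -1.29 ± 0.21 (adjusted p = 1.99e-04), while iHoxc6 neurons stayed at 0.349, 0.0934 and 0.243 CPM. Cyp26a1, which degrades RA and is induced by it, went from 7.42, 4.16 and 6.03 CPM to 20.5, 41.4 and 29 CPM (2.36 ± 0.22, adjusted p = 1.13e-07), again below the 111, 148 and 134 CPM of iHoxc9 neurons (-2.11 ± 0.21, adjusted p = 2.75e-07). For Aldh1a2 the order was the reverse, with iHoxc10 above iHoxc9, so the 3 retinoid genes that rose did not share an order between the posterior lines.

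The retinoid receptor gene Rxrg fell from 26.9, 23.8 and 27.6 CPM to 6.41, 6.02 and 6.56 CPM (-2.04 ± 0.17, adjusted p = 2.22e-08), and the RA-binding protein gene Crabp2 from 456, 456 and 708 CPM to 273, 203 and 320.3 CPM (-1.02 ± 0.20, adjusted p = 5.96e-04). Aldh1a1, another RA-synthesizing enzyme, had 21 counts over the control libraries and 4 over the iHoxc10 libraries, a 5.08-fold lower level with a counting interval of 1.72 to 20.4, and its adjusted p of 0.00882 was lost in 9 of 13 alternative analyses. The RA receptor genes Rara, Rarb and Rarg were 0.12 to 0.36 above the control on the log2 scale and did not pass. Stra6 was at 19.8, 19.5 and 14.3 CPM and 36.4, 41.4 and 42.3 CPM (1.17 ± 0.37, adjusted p = 0.0233) and Cyp26b1 at 345, 173 and 179 CPM and 189, 344 and 301 CPM (0.26 ± 0.25, adjusted p = 0.512), neither of which passed. Stra6 did pass when the fit held only these 2 groups or only the day 4 libraries (adjusted p = 3.47e-06 in the latter).

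The gene with the largest fall was Sst (chr16:23889573-23891342, minus strand), which encodes the neuropeptide somatostatin. It was at 166, 199 and 219.7 CPM in control and at 2.66, 2.19 and 2.59 CPM in iHoxc10 libraries, a log2 fold change of -6.30 ± 0.24 (adjusted p = 6.99e-14). Every iHoxc10 library lay far below every control library. iHoxc6 neurons kept 149.7, 103 and 135 CPM, and iHoxc9 neurons held 0.391, 0.442 and 0.756 CPM, lower than iHoxc10 by 2.24 ± 0.29 (adjusted p = 1.13e-05). Arhgap36, an inhibitor of protein kinase A that acts on Hedgehog signaling, was the other abundant gene among the largest falls. It went from 211, 363 and 246 CPM to 17, 16.8 and 22.2 CPM (-3.87 ± 0.27, adjusted p = 1.25e-09), and in iHoxc9 neurons it was at 55, 48.6 and 58.9 CPM, above iHoxc10 (-1.54 ± 0.25, adjusted p = 1.70e-04).

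The remaining genes with the largest falls were at a few CPM in the control. Cga, the common subunit of glycoprotein hormones, had 121 counts over the control and 2 over the iHoxc10 libraries, a 58.6-fold lower level with a counting interval of 15.9 to 489. Spp2 went from 2.67, 4.2 and 11.6 CPM to 0.175, 0.179 and 0.0405 CPM (-5.46 ± 0.70), and Tagln, an actin-binding protein of smooth muscle, from 2.73, 4.62 and 2.13 CPM to 0.07, 0.179 and 0.203 CPM (-4.37 ± 0.39). The embryonic globin Hbb-y went from 1.99, 3.08 and 2.51 CPM to 0.07, 0.143 and 0.365 CPM (-3.73 ± 0.75). Each of these had an adjusted p between 6.12e-08 and 8.56e-04. The kinase gene Stk26 (-3.36 ± 0.33), the interleukin receptor Il1r1 (-3.38 ± 0.66), ccdc198 (-3.52 ± 0.40), 1700024G13Rik (-3.41 ± 0.51) and Prdm16os (-3.25 ± 0.48) completed the list of falls together with Rpph1, the RNA of ribonuclease P (-3.30 ± 0.86, adjusted p = 0.00675), which was lost in 6 of 13 alternative analyses. Exons of Cga, Tagln, ccdc198 and Rpph1 overlap those of other genes, which makes their counts uncertain.

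Among the largest rises beyond the Hox and retinoid genes, Igf2, an insulin-like growth factor, went from 3.79, 6.78 and 5.01 CPM to 103, 178 and 85.2 CPM (4.56 ± 0.32, adjusted p = 1.85e-09). Tmem255a went from 2.12, 1.08 and 1.42 CPM to 37.4, 40.8 and 25.9 CPM (4.48 ± 0.24, adjusted p = 3.20e-11). Sorcs3, a sorting receptor of the Vps10 family, went from 4.14, 1.89 and 1.68 CPM to 55.8, 38.3 and 32.8 CPM (4.02 ± 0.28, adjusted p = 1.61e-09). In all 3 the lowest iHoxc10 library was above the highest control library. Cabp7, a calcium-binding protein, went from 0.578, 0.77 and 0.898 CPM to 16.9, 17.7 and 14.4 CPM (4.45 ± 0.23, adjusted p = 9.22e-12), and Fam135b from 0.964, 0.308 and 0.487 CPM to 15.3, 11.5 and 8.63 CPM (4.29 ± 0.34, adjusted p = 1.29e-08).

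Adamts19, a secreted metalloprotease, went from 0.193, 0.231 and 0.0374 CPM to 3.22, 4.66 and 2.71 CPM (4.48 ± 0.39), Vstm2a from 0.386, 0.231 and 0.337 CPM to 7.39, 8.06 and 3.4 CPM (4.28 ± 0.38), and Rapgef4, an exchange factor activated by cAMP, from 0.225, 0.116 and 0.0374 CPM to 2.56, 3.08 and 1.5 CPM (4.15 ± 0.53). Tnfsf13b, a cytokine of the tumor necrosis factor family, had 133 counts over the iHoxc10 and 6 over the control libraries, 22.9-fold higher with a counting interval of 10.2 to 63.5. Set beside iHoxc9 within the run, some of these genes passed and others did not. Missing the threshold does not show that levels were equal. Cabp7 (2.15 ± 0.19), Fam135b (2.61 ± 0.30), Vstm2a (3.13 ± 0.34), Sorcs3 (1.82 ± 0.25) and Igf2 (1.72 ± 0.28) were higher in iHoxc10 than in iHoxc9 neurons, with adjusted p between 6.93e-08 and 2.03e-04. Tmem255a (0.41 ± 0.20), Adamts19 (-0.77 ± 0.27), Tnfsf13b (0.86 ± 0.31) and Rapgef4 (-0.00 ± 0.37) did not pass between the 2 lines. Reads of Igf2, Tmem255a, Cabp7 and Rapgef4 can overlap those of neighboring genes.

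**Figure D4:**
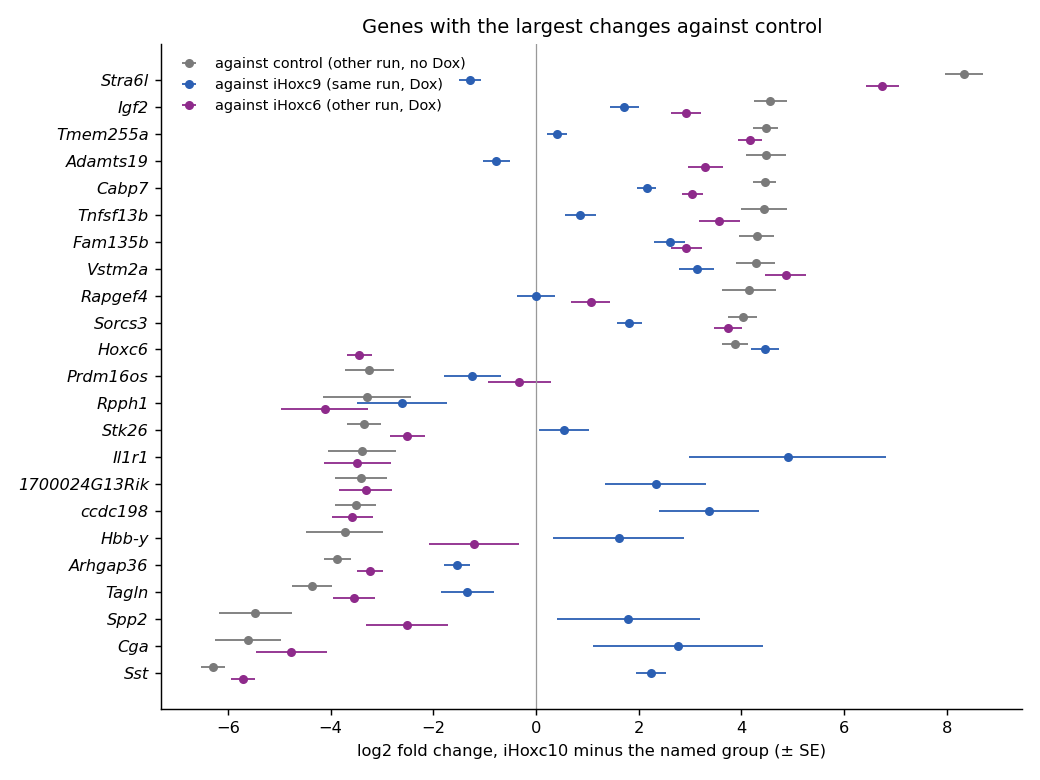
Log2 fold change ± SE (x axis) of iHoxc10 neurons against control, iHoxc9 and iHoxc6 neurons for 23 genes with the largest changes against control. Hoxc10 is not drawn, because its control level is 0. Sst lies at -6.30 against control but at 2.24 against iHoxc9, and Hoxc6 is high against control and iHoxc9 but low against the line in which it was induced.

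Of 26 markers of spinal interneuron classes, 5 rose, 1 fell (none in 8 of 13 alternative analyses) and 20 did not pass, and the median log2 fold change was -0.12. The V3 marker Sim1 rose from 0.739, 0.308 and 0.337 CPM to 4.87, 7.63 and 3.44 CPM (3.48 ± 0.36, adjusted p = 4.90e-07), less than in iHoxc9 neurons (-1.68 ± 0.28 between iHoxc10 and iHoxc9, adjusted p = 2.95e-04). Foxp2, of V1 interneurons among others, rose from 2.06, 1.23 and 1.08 CPM to 7.95, 7.81 and 5.92 CPM (2.29 ± 0.28, adjusted p = 4.35e-06). The dorsal marker Prrxl1 (2.7 ± 0.60) and Foxd3 (2.01 ± 0.48), of V1 cells and neural crest, were called at low levels, and the calls were lost in 2 and 8 of 13 alternative analyses. When the first control or the second iHoxc10 library was left out, 3 of the 26 rose. Among 11 tested genes of temporal identity, which separate early-born from late-born neurons along the spinal cord, 4 rose and none fell, with a median of 1.02. Nfib, a factor of late-born neurons, rose from 4.14, 1.89 and 1.57 CPM to 13.1, 10.1 and 7.46 CPM (2.00 ± 0.32, adjusted p = 1.11e-04), and Zfhx4 from 51.5, 57.1 and 35.4 CPM to 162, 128 and 107 CPM (1.46 ± 0.27, adjusted p = 4.43e-04).

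Of 16 pan-neuronal genes, 7 rose and none fell, with a median log2 fold change of 0.57. Their summed level was 10647 to 11436 CPM in control and 14805 to 16131 CPM in iHoxc10 libraries. Map2, a microtubule protein of dendrites, rose from 284, 292 and 206 CPM to 857, 636 and 686 CPM (1.48 ± 0.19, adjusted p = 7.95e-06), and Rbfox3 (NeuN) from 22.1, 23.2 and 21.8 CPM to 61.5, 60.4 and 50.2 CPM (1.36 ± 0.15, adjusted p = 1.11e-06). Against iHoxc9 neurons within the run, Map2 did not pass (-0.38, adjusted p = 0.265), while it was higher than in iHoxc6 neurons (1.27, adjusted p = 6.4e-05). Without the third control library, 4 of the 16 rose. Of 22 cell cycle genes, none rose and 9 fell, with a median of -0.62, and the kinase gene Cdk1 fell from 77.8, 78.2 and 89.2 CPM to 27.8, 33 and 35.6 CPM (-1.35 ± 0.15, adjusted p = 1.43e-06). Mki67, whose values are given above, did not pass (-0.43 ± 0.31, adjusted p = 0.359), and 5 of the 22 fell when the second control library, or the first or second iHoxc10 library, was left out.

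Of 20 genes of ventral progenitors, 2 rose, 7 fell and 11 did not pass, with a median of -0.09. Olig1 was at 8.42, 24.3 and 10.2 CPM and 2.35, 1.83 and 3.44 CPM (-2.50 ± 0.33, adjusted p = 1.43e-05) and Nkx2-9 at 1.67, 6.55 and 1.72 CPM and 0.525, 0.215 and 0.405 CPM (-3.09 ± 0.49, adjusted p = 1.00e-04). Both, like Olig2, had their highest value in the second control library, and without it the log2 fold change of Olig1 was -1.88. Of 15 floor plate and Hedgehog genes, none rose (1 without the second control library) and 3 fell, among them the pathway target Gli1 (-1.55 ± 0.26, adjusted p = 1.88e-04). Of 17 neurogenic genes, 4 rose and 1 fell (none without the first or the second iHoxc10 library, and 2 in 5 other alternative analyses). Ebf1 and Ebf3, factors of newborn neurons, rose from 22, 23.2 and 21.7 CPM to 72.4, 61.2 and 61.7 CPM (1.54 ± 0.19) and from 53.6, 75.7 and 60.6 CPM to 226, 179 and 192 CPM (1.65 ± 0.25). Pan-neuronal, cell cycle and progenitor genes thus differed between the same groups as the genes above, and their part in the other differences was not tested.

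In the list of neuropeptides, 7 of 22 tested rose and 2 fell, with a median of 0.44, or 0.68 with the limit of detection handled as above. Opposite to Sst, neuropeptide Y (Npy) rose from 1.74, 1.43 and 1.27 CPM to 7.21, 10.5 and 9.24 CPM (2.59 ± 0.28, adjusted p = 1.02e-06). It was also above iHoxc9 and iHoxc6 neurons, by 2.88 ± 0.29 and 2.88 ± 0.29 (adjusted p = 3.24e-07 and 5.41e-07). Of 18 peptide receptors, 1 rose (none in 4 of 13 alternative analyses) and 3 fell, and those called were Npy2r (-2.18 ± 0.43, adjusted p = 6.87e-04), a receptor of neuropeptide Y, and Tacr3 (-3.15 ± 0.75, adjusted p = 0.00344), a call lost in 3 of 13 alternative analyses. Of 14 genes of transmitter synthesis and transport, 2 rose (1 without the first control or the second iHoxc10 library) and 1 fell (2 in 4 of 13 alternative analyses, 1 of them without the second control library). Ddc, which makes dopamine and serotonin from their precursors, fell from 179, 176 and 151 CPM to 35, 32 and 47.9 CPM (-2.14 ± 0.18, adjusted p = 2.94e-08).

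Genes for ion channel and metabotropic receptors were divided by transmitter. Of 25 glutamate receptor genes, 7 rose, 4 fell and 14 did not pass, with a median of 0.89. Grm8 rose from 0.161, 0.193 and 0.112 CPM to 1.54, 1.97 and 0.81 CPM (3.19 ± 0.46, adjusted p = 3.39e-05), and Grin3a had 70 counts over the iHoxc10 and 6 over the control libraries, 12.1-fold higher with a counting interval of 5.27 to 34.0. Both stayed below 2 CPM, and 2 of the 25 fell after leaving out any single iHoxc10 library or with only these 2 groups in the fit. Of 29 receptor genes for GABA, glycine and acetylcholine, 8 rose and 2 fell, with a median of 0.49, and 5 rose without the third control or the first iHoxc10 library. The nicotinic subunit gene Chrnb4 fell from 11.7, 24.1 and 15.6 CPM to 3.68, 4.41 and 4.66 CPM (-2.01 ± 0.24, adjusted p = 3.12e-06), or by 1.68 on the log2 scale without the second control library. The call was lost in 4 of 13 alternative analyses. Chrnb4 lay below iHoxc9 neurons (27.4, 22.2 and 28.1 CPM) by -2.61 ± 0.24 (adjusted p = 1.01e-07).

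Adhesion and guidance genes rose more often than they fell. Type II cadherins, which sort motor pools by differential adhesion, had 5 risers and no fall among 12 tested, with a median of 0.64. Cdh8 rose from 2.02, 1.39 and 1.01 CPM to 7.63, 7.49 and 8.39 CPM (2.40 ± 0.21, adjusted p = 6.63e-08), and Cdh12 from 1.06, 0.578 and 0.711 CPM to 6.34, 4.87 and 4.25 CPM (2.7 ± 0.32, adjusted p = 2.75e-06). Cdh9, with 31 counts over the iHoxc10 and 4 over the control libraries (8.00-fold higher, counting interval 2.83 to 31.2), was called too and lost in 4 of 13 alternative analyses. Of 22 Eph receptors and ephrins, 6 rose and none fell, with a median of 0.43, and Epha7 rose from 6.49, 4.89 and 4.38 CPM to 27.8, 24 and 19.6 CPM (2.18 ± 0.17, adjusted p = 1.48e-08).

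Semaphorins, plexins and neuropilins, ligands and receptors for repulsive guidance, had 13 risers and 1 fall among 31, with a median of 0.58. The receptors Plxnc1 and Nrp1 rose from 7.29, 8.2 and 6.06 CPM to 41.2, 39.1 and 27.4 CPM (2.32 ± 0.20, adjusted p = 5.62e-08) and from 83.1, 61.3 and 48.6 CPM to 232, 208 and 167 CPM (1.66 ± 0.18, adjusted p = 7.85e-07). Of the ligands, Sema4a rose (2.11 ± 0.29, adjusted p = 1.69e-05), and Sema3d was the member that fell, from 37.4, 42 and 29.4 CPM to 10.2, 6.81 and 7.21 CPM (-2.16 ± 0.30, adjusted p = 1.93e-05). Of 22 genes of the Slit, Robo and netrin systems, 8 rose and 2 fell, with a median of 0.23, or 0.38 with the limit of detection handled as above. The netrin receptor gene Unc5c rose by 1.59 ± 0.23 (adjusted p = 4.03e-05), and Cxcr4, a chemokine receptor of ventrally exiting motor axons, fell from 87.7, 101 and 99.2 CPM to 45.7, 42.8 and 52.5 CPM (-1.03 ± 0.13, adjusted p = 1.14e-05). Within the run, however, Cxcr4 was higher in iHoxc10 than in iHoxc9 neurons (0.84, adjusted p = 1.78e-04). It was lower than in iHoxc6 neurons (-0.72, adjusted p = 6.60e-04).

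Receptors for trophic factors, on which limb MNs depend for survival, had 7 risers and 1 fall among 17, with a median of 0.48. Next to Gfra1 and Ret, the BDNF receptor Ntrk2 rose from 5.94, 5.16 and 4.08 CPM to 31.5, 30.4 and 21.4 CPM (2.46 ± 0.21, adjusted p = 4.97e-08). Its level in iHoxc9 neurons was higher still, 79.9, 91.5 and 66.7 CPM (-1.51 ± 0.20, adjusted p = 1.55e-05), whereas Gfra1 was higher in iHoxc10. In 3 of the leave-out analyses, those without the third control library or the first or second iHoxc10 library, 4 of the 17 rose. Set beside the 6.67% of all genes that passed upward, risers were a larger share of the cadherin, Eph, semaphorin, Slit and trophic receptor lists, none of which was tested as a list. The 6.67% is over all 20944 genes, including those with hardly any counts. In these lists, 8 of 12, 18 of 22, 29 of 31, 20 of 22 and 16 of 17 members reached a mean of 1 CPM in a group. The lists were also chosen with earlier results of these data known, so no conclusion is drawn from the larger share.

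**Figure D5:**
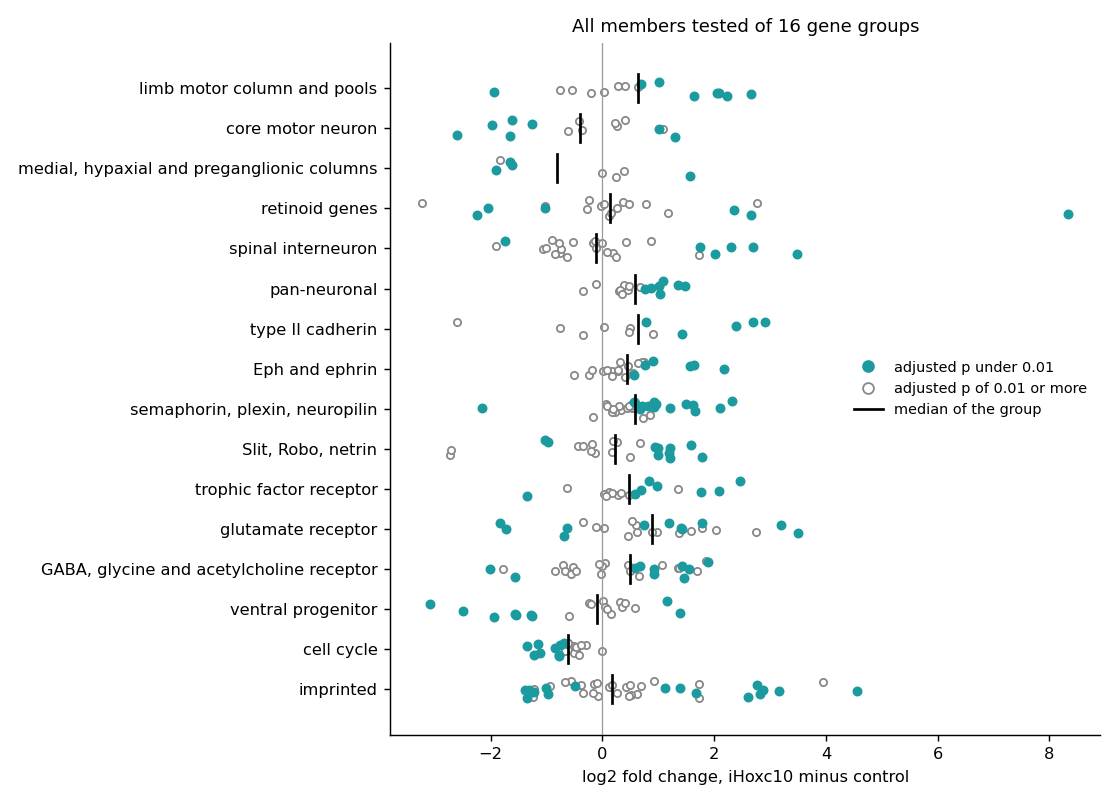
Log2 fold change of iHoxc10 against control neurons (x axis) for every tested member of 16 gene groups, with filled points for genes that passed at an adjusted p under 0.01, open points for the rest and a black line at the group median. The medians of glutamate receptors (0.89) and limb motor column (0.64) lie to the right of 0, and those of cell cycle (-0.62) and of the medial columns (-0.82) to its left.

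Among 38 extracellular signals and their antagonists, 3 rose, 5 fell (2 without the first iHoxc10 library, and 3 when both groups were fitted alone) and 30 did not pass, with a median of -0.10, or -0.21 with the limit of detection handled as above. Rspo2, which enhances Wnt signaling, rose from 0.129, 0.077 and 0.337 CPM to 2.1, 1.36 and 0.972 CPM (3.02 ± 0.42, adjusted p = 2.12e-05). The BMP antagonist Chrdl1 fell from 2.31, 2.89 and 2.84 CPM to 0.49, 0.609 and 0.486 CPM (-2.33 ± 0.30, adjusted p = 1.12e-05), and Bmp4 (-2.19 ± 0.51, adjusted p = 0.00313) was called but lost in 5 of 13 alternative analyses. All 3 genes were below 3 CPM. Of 9 tested genes that time the growth of the trunk axis, 1 fell and none rose, although 1 rose in 3 of 13 alternative analyses.

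Imprinted genes are expressed from a single parental allele and can differ between stem cell lines, so they were followed as a separate list. Of 41 tested, 9 rose, 8 fell (5 without the third iHoxc10 library) and 24 did not pass. The median log2 fold change was 0.17, or -0.08 with genes at the limit of detection handled as above. Grb10, an adaptor that restrains insulin signaling, rose from 23.1, 32.9 and 18.5 CPM to 221, 200.4 and 247 CPM (3.17 ± 0.22, adjusted p = 1.25e-09). Cdkn1c, an inhibitor of cyclin-dependent kinases, rose from 33.3, 19 and 31.2 CPM to 172, 209.6 and 231 CPM (2.87 ± 0.25, adjusted p = 5.62e-08). Dlk1, a Notch ligand homolog, rose from 4.85, 10.01 and 6.4 CPM to 50.3, 47.3 and 46.7 CPM (2.77 ± 0.39, adjusted p = 3.03e-05). With Igf2, these were the 4 imprinted genes called with the smallest p, and 6 were called in all, each of them higher. Grb10, Cdkn1c and Igf2 were also higher in iHoxc10 than in iHoxc9 neurons, by 1.69 ± 0.20, 1.74 ± 0.24 and 1.72 ± 0.28, while Dlk1 did not pass (-0.29 ± 0.36, adjusted p = 0.729). The line differs in each of these comparisons, and its part was not tested.

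Hprt, the locus that holds the transgene, was the only called member of 6 genes at or beside the insertion site. It was at 1.25, 2.23 and 1.35 CPM in control, 17.7, 16.9 and 19.6 CPM in iHoxc10, 8.02, 8.01 and 8.76 CPM in iHoxc9 and 11.4, 12 and 13.6 CPM in iHoxc6 neurons. The rise against control was 3.49 ± 0.19 (adjusted p = 3.20e-11). In each of these 3 induced lines, every library lay above every control library.

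Markers of cells outside the neural lineage were at low levels in both groups. Of 10 tested pluripotency genes none passed (1 fell without the first control library), their summed level was 1.5 to 2.27 CPM in control and 1.18 to 1.46 CPM in iHoxc10 libraries, and 6 were under 0.1 CPM in both. Of 10 mesoderm and muscle genes, 2 fell, fewer in 8 of 13 alternative analyses, and none rose, although 1 did in 2 of 13 (summed level 3.77 to 4.75 and 3.00 to 3.94 CPM). Of 10 endoderm genes, Cdh1 fell, from 3.4, 5.97 and 2.88 CPM to 0.91, 0.86 and 1.26 CPM (-2.02 ± 0.46, adjusted p = 0.00237), a call lost in 5 of 13 alternative analyses, and the summed levels overlapped. Of 8 endothelium and blood genes, 1 fell at the adjusted p without being called, and did not pass in 8 of 13 alternative analyses, with summed levels of 2.36 to 3.66 and 1.3 to 1.58 CPM.

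Neural crest and peripheral sensory genes, 13 in all, had 4 risers (2 in 4 of 13 alternative analyses) and 1 fall while their summed level was lower in iHoxc10 neurons, 193 to 206 CPM against 233 to 307 CPM in control. Of the 3 risers called, Pou4f3 and Tfap2b were near the limit of detection. Pou4f3, at 0 in control, was at 0.14, 0.215 and 0.243 CPM, at least 1.85-fold higher than 3 counts. Tfap2b had 31 counts over the iHoxc10 and 4 over the control libraries, a call lost in 5 of the 11 alternative analyses that gave it a result. Of 11 glial genes, 1 rose (2 in 6 of 13 alternative analyses, 1 of them without the second control library) and 1 fell, the oligodendrocyte precursor receptor Pdgfra (-2.49 ± 0.47, adjusted p = 5.26e-04), and their summed level was 118 to 153 CPM in control and 205 to 249 CPM in iHoxc10 libraries. The part of these cell types in the other results was not tested.

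Within the run shared with iHoxc9 neurons, 1046 genes (4.99%) passed between iHoxc10 and iHoxc9 and 274 (1.31%) were called, 125 (0.597%) higher and 149 (0.711%) lower in iHoxc10. Against iHoxc6 neurons, 2311 genes (11%) passed and 266 (1.27%) were called, 148 (0.707%) higher and 118 (0.563%) lower. Leaving out a library lowered the genes that passed against iHoxc9 to 661 without the second iHoxc10 library and to 668, 697 and 694 without the first, the second and the third iHoxc9 library. Against iHoxc6, 851 passed and 164 were called, 102 higher and 62 lower, without the first iHoxc10 library, and 1267 passed without the second. Without the first, the second or the third iHoxc6 library, 1262, 1119 and 1320 passed against iHoxc6. Of the markers given for these neurons, Hoxc10, Aldh1a2 and Lhx1 passed upward in iHoxc10 against all 3 other groups, and Foxp1 and Gfra1 passed as well. The differences were under the fold threshold for Aldh1a2 against iHoxc6, and for Foxp1 and Gfra1 against iHoxc9 and iHoxc6. The 3 comparisons share the iHoxc10 libraries and are not independent of each other.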

How the data were processed

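RNA-seq libraries were mapped to groups, lines and replicate numbers from their labels. STAR (2.7.0c) was the aligner of the authors and featureCounts their counter, with mm10 as genome and RefSeq as annotation. Genes that shared an Entrez identifier were merged, and the deposited files hold raw read counts per gene. DESeq2 (1.20.0) is listed in the submitters' processing notes. Libraries were made with a stranded kit, but the strand setting of the counting is not given in the sources used here, so genes with overlapping exons are uncertain. Of 27179 identifiers, 25275 matched a symbol. Coordinates are those of GENCODE on GRCm38, the assembly of mm10, and promoters are those of RefSeq on GRCm38.p6. No column of counts was left unused, and the ChIP-seq, ATAC-seq and other assays were not analysed here.

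The deposited counts were scaled by TMM and tested by quasi-likelihood in edgeR (4.0.16, R 4.3.3). All 18 libraries entered 1 model of the 6 groups, and a gene needed 1 count in at least 1 iHox library. Calls required, after the study, an adjusted p under 0.01 together with an absolute log2 fold change over 2. The standard error was derived from the F statistic. With 3 libraries against 3, no two-sided exact permutation test of a single gene can give less than 0.1. Intervals and detection limits cover counting error only, because reads carry no molecular identifiers. A fold for a gene with 3 counts or fewer per library in a group is a ratio of summed counts with its exact interval.

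Members and gene lists, 35 lists of 593 entries, were chosen with earlier results of these data known. Named are Hoxc10, Aldh1a2 and Lhx1, the 12 called genes with the largest rise and the 12 with the largest fall (symbol, mean of at least 1 CPM in a group, no overlap between groups), at most 4 called members per list and direction, any Hox, cofactor, LMC, core MN or retinoid gene, and at most 2 uncalled genes of any other list. A cofactor gene that the rule names is not reported here.

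Whether equal replicate numbers pair the libraries was checked by correlating deviations from the group means over 13192 genes. The correlations were 0.27, -0.31 and 0.09 between iHoxc10 and control, so these were not treated as paired. They were 0.46, 0.42 and 0.54 between iHoxc10 and iHoxc9, which the replicate number pairs. The SE and adjusted p given against iHoxc9 come from the model of groups alone and do not use this pairing. The alternative with the replicate number as a block shares its effect over all 6 groups. It is therefore not a pairing of iHoxc10 with iHoxc9 alone. Alternatives were DESeq2's Wald test (1.42.0), DESeq2's size factors within edgeR, at least 10 counts in at least 3 libraries, no filter, only the 2 groups in the fit, the replicate number as a block, each library left out in turn, and other thresholds. A fit of day 4 libraries alone was chosen after seeing the data. On simulated counts of 20491 genes for this comparison, 100 of 100 genes with a simulated log2 difference of 3 and 100 of 100 with one of 4 were called, with 0 false calls among 20291. The genes given a difference had a mean of at least 1 CPM over all libraries. How often differences are found in rarer genes or near the fold threshold was therefore not simulated. No effect of run or line was simulated either, so the false calls do not cover such differences.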

Additional observations from a re-analysis of the deposited data

Results flagged for a closer look

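For 5 of the named genes, the change against control had opposite signs in iHoxc10 and in another induced line, with the difference between the lines itself tested (edgeR, adjusted over all genes). Lhx1 was 2.23 above control in iHoxc10 and -1.87 in iHoxc9 on the log2 scale, a difference of 4.09 (adjusted p = 7.83e-14). Hoxa3 was at 0.73 and -1.65, a difference of 2.38 (adjusted p = 4.03e-10). Pbx3 was at 1.07 and -0.51, a difference of 1.58 (adjusted p = 6.95e-08). These 3 differences lie within a sequencing run. Cdh8 was at 2.40 in iHoxc10 and -1.27 in iHoxc6, a difference of 3.67 (adjusted p = 6.95e-10). Hoxc6 was at 3.88 in iHoxc10 and -1.47 in iHoxc8, a difference of 5.34 (adjusted p = 2.89e-11), and these groups also differ in run. The control line carries the uninduced Hoxc6 transgene, and its part in the -1.47 was not tested. The 2 effects compared share the control libraries.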

How the results depend on the processing

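The 311 genes called between iHoxc10 and control neurons became 306 with DESeq2's Wald test, 309 with DESeq2's size factors, 290 with the stricter filter, 319 without a filter, 304 with only the 2 groups in the fit, and 336 with the day 4 libraries alone, an alternative chosen after seeing the data. Leaving out a library gave 228 to 356 against control, 223 to 260 against iHoxc9 and 164 to 279 against iHoxc6, the lowest of these without the first iHoxc10 library. A log2 fold change above 1 gave 1437, 701 and 1029 genes against control, iHoxc9 and iHoxc6, and the adjusted p alone 3022, 1046 and 2311. The replicate number as a block gave 302 genes against control, 258 (from 274) against iHoxc9 and 249 (from 266) against iHoxc6, and between iHoxc10 and control, where the numbers share only a name, single libraries did not deviate with their own number. The share of higher genes was 52.1% and ranged from 41.3% without the second control library to 61.0% without the first iHoxc10 library.

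Of 143 genes named or eligible to be named, none that passed reversed, and 17 that did not pass changed sign in at least 1 alternative. In this set, 85 passed and 72 of these passed in each of 13 alternatives. The other 13 were lost in at least 1, and 10 that had not passed did so in at least 1. Of 68 called genes, 51 kept both thresholds throughout. The lists with no rise or no fall (edgeR) had at most 2 members past an unadjusted p under 0.05 in that direction, and DESeq2 passed none there except 1 riser among the trunk timing genes. Genes with under 3 counts in a library, 0.0975 to 0.115 CPM here, cannot be resolved at this depth.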
